A study of Mus musculus with 6 samples.

Results

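Genes for mitochondrial fusion, fission, transport and mitophagy were followed in the mouse line bEnd.3, which derives from brain endothelium, after its cells received mitochondria of the osteocyte-like mouse line MLO-Y4. The gene set was a list of 34 symbols, and all 34 were found, each once, among the 30077 genes of the deposited table. The wild-type bEnd.3 cells were either incubated for 24 h with isolated mitochondria in 100 µl of medium or given the same volume of medium alone (control), with 3 libraries in each group. The labels do not tie the libraries to independent cultures. The p-values therefore reflect the spread between libraries alone, and that spread may be technical. The dose of mitochondria is not given in the sources used here, and a preparation without mitochondria is not among the groups.

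Mitochondria form a network that is reshaped by fusion and fission and moved along microtubules. Mitofusins join outer membranes and OPA1 joins inner membranes, while the dynamin DRP1, recruited by adaptors on the outer membrane, divides the organelle. Damaged mitochondria are marked with ubiquitin in a pathway that the kinase PINK1 starts, or by receptors built into their own membrane. The marks are read by soluble autophagy receptors such as p62, which bind ATG8-family proteins on the growing autophagosome.

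Of the whole set, the soluble autophagy receptor gene Sqstm1, which encodes p62, and the ATG8-family gene Gabarap rose, by 17.3% and 14.7%, and no member fell. The other 32 members did not pass the test, and this included all 15 members with roles in fusion, fission and transport. Every member was above the filter for low expression, which asked for 1 FPKM (fragments normalised for transcript length and library depth) or more in 3 or more of the 6 libraries. Counts of 11255 genes entered edgeR's quasi-likelihood test, with 0.05 as the threshold on the Benjamini-Hochberg adjusted p. The share of members called was 5.88% (2 of 34), against 2.09% of all tested genes, where 0.986% were higher and 1.1% lower. DESeq2 called 3 members and 5.53% of its tested genes, and limma on log2(FPKM + 1) called no member and 0.347% of genes. In edgeR 10 members (29.4%) had an unadjusted p under 0.05, against 16.1% of all tested genes, and 20 (58.8%) were above 0, against 50.4%. The median log2 fold change of the members, mitochondria over control, was 0.045, against 0.0011 for all tested genes. In CPM, counts relative to library size and here always with TMM scaling, 11 members were higher in every mitochondria library than in every control, 5 were lower in every one, and 18 overlapped. These 16 members were 47.1% of the set, against 21.1% of all tested genes, of which 10.1% were higher and 11% lower. The split depended on the scaling. On deposited FPKM, Mfn2, Nbr1, Calcoco1, Bnip3l, Tomm7, Vdac1 and Gabarapl2 overlapped. Only Sqstm1, Gabarap, Optn and Pink1 stayed higher without overlap, Pink1 narrowly (highest control 7.897, lowest mitochondria library 7.900). The 5 lower members stayed lower, and Yme1l1, Rhot1 and Tax1bp1 joined them. The share of all tested genes was not counted on FPKM. The members were also measured with less spread than most genes, with a median standard error (SE) of 0.049 on the log2 scale against 0.079 for all tested genes. Because the members were chosen with earlier results of these data known, their shares were not tested against those of all genes.

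**Figure D1:**
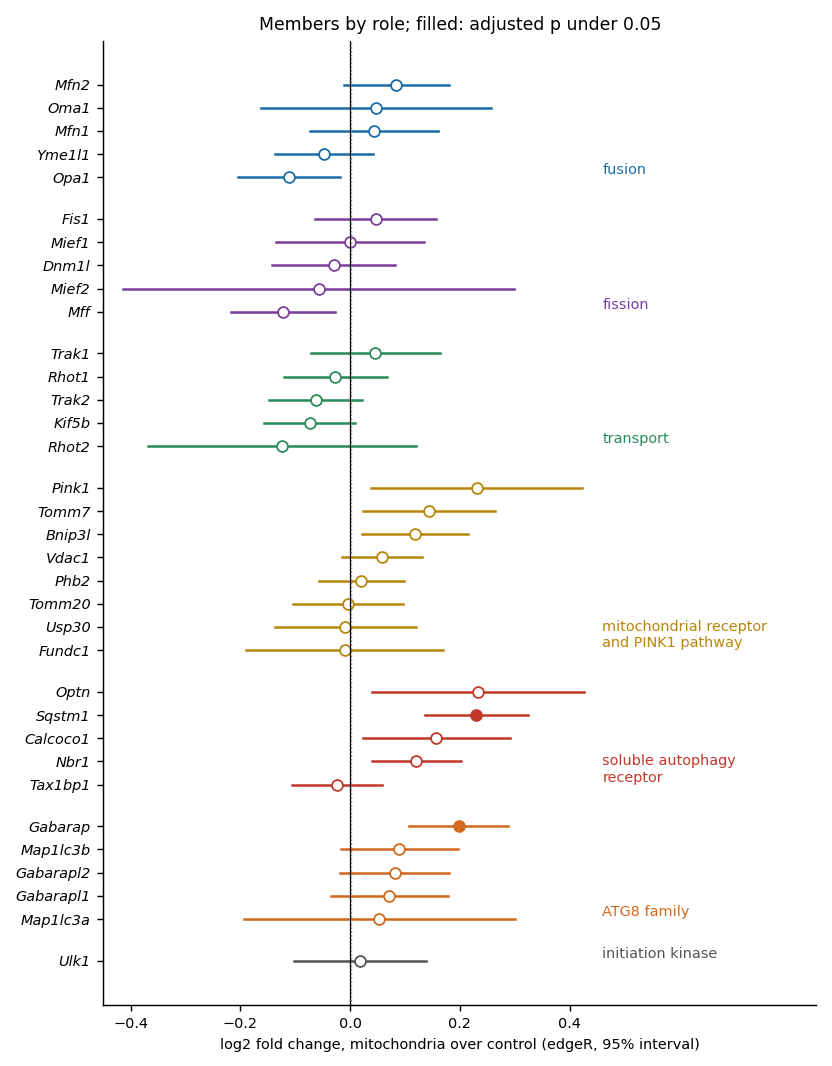
Log2 fold change of each member, mitochondria over control, with its 95% interval from edgeR, grouped by role; filled circles passed the test and open circles did not. Sqstm1 at 0.23 and Gabarap at 0.20 are the filled circles, most fission and transport members lie at or left of 0, and the soluble receptors and ATG8-family members lie mostly to the right.

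The libraries held 59651087 to 65576084 counts. Reads at CT010467, annotated as 18S ribosomal RNA, and at Lars2 together took 1.74% to 3.56% of counts in the controls and 4.38% to 7.94% in the mitochondria libraries, so the groups did not overlap in this share. The share and the treatment therefore cannot be told apart with these libraries. With the share as a covariate the standard errors of both called members were larger, and 3 of all tested genes and no member were called. The 10 endothelial markers were all expressed, with a summed level of 1198 to 1200 FPKM in the controls and 1137 to 1204 FPKM in the mitochondria libraries. With TMM scaling 9 of the 10 were above 0, with a median log2 fold change of 0.054 beside 0.045 for the members; none passed in edgeR, 3 had an unadjusted p under 0.05 and 1 was called in DESeq2. Pecam1 (0.071) and Esam (0.13, edgeR adjusted p = 0.0532) were higher in every mitochondria library, and the part of this shift in the members' values was not tested. Of 14 osteocyte and osteoblast markers of the donor line, 11 were in the table and only Spp1 passed the filter. Their summed level was 4.60 to 5.48 FPKM in the controls and 4.95 to 5.87 FPKM in the mitochondria libraries, and Bglap was at 0 in all 6. Spp1 made up most of this sum, with means of 3.90 and 4.57 FPKM. It was higher in every mitochondria library than in every control (log2 fold change 0.29, SE 0.13, edgeR adjusted p = 0.314). Col1a1, below the filter, was lower in every mitochondria library. Transcripts carried in with the mitochondria cannot be told apart from those of the bEnd.3 cells, and fewer copies per cell cannot be told apart from fewer cells that express a gene.

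The soluble autophagy receptors had the highest median log2 fold change of the roles, 0.16. Of the 5 genes, 1 rose, none fell and 4 did not pass. In CPM, 4 of the 5 (80%) were higher in every mitochondria library than in every control, against 10.1% of all tested genes. Sqstm1 encodes p62, which binds ubiquitin and ATG8-family proteins and also holds KEAP1, the inhibitor of the antioxidant factor NRF2. Its level was 1044, 996 and 1078 CPM in controls 1, 2 and 3 and 1295, 1154 and 1209 CPM in mitochondria 1, 2 and 3. Mitochondria 1 was the highest, and the lowest mitochondria library lay above the highest control. The means were 1039 ± 41.5 and 1219 ± 71.3 CPM (SD, n = 3), a log2 fold change of 0.23 ± 0.043 (SE; edgeR adjusted p = 0.0190). In FPKM, which is the deposited unit and has no TMM scaling, Sqstm1 was at 276, 271 and 286 in the controls and 340, 289 and 309 in the mitochondria libraries, again without overlap. The call was kept without mitochondria 1 or 2 and lost without control 1, 2 or 3 or mitochondria 3, with log2 fold changes of 0.18 to 0.27 over the 6 fits. With the ribosomal share as a covariate the log2 fold change was 0.26 (SE 0.078) and did not pass (edgeR adjusted p = 0.700).

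Optn, Calcoco1 and Nbr1 lay above 0 as well, but did not pass. Optn encodes optineurin, a ubiquitin-binding receptor of PINK1-dependent mitophagy. It was measured at 19.2, 21.9 and 20.1 CPM in the controls and 23.6, 24.9 and 23.6 CPM in the mitochondria libraries, without overlap (log2 fold change 0.23 ± 0.089 SE, edgeR adjusted p = 0.224). Calcoco1, a receptor related to NDP52, was at 56.0, 50.5 and 48.3 CPM and then at 59.6, 56.3 and 56.7 CPM (log2 fold change 0.16 ± 0.061 SE, edgeR adjusted p = 0.236). The groups did not overlap, although control 1 came within 1 CPM of mitochondria 2. Nbr1, a p62-like receptor, was at 145, 149 and 152 CPM in the controls and 163, 160 and 161 CPM in the mitochondria libraries. Its log2 fold change was 0.12 (SE 0.037), which passed in DESeq2 (adjusted p = 0.0424) and not in edgeR (adjusted p = 0.138), and with TPM it was −0.037. Tax1bp1, another ubiquitin-binding receptor, was at −0.024 (SE 0.038) with overlapping groups. Calcoco2, the gene for NDP52 itself, was not among the members and held 0 counts in every library.

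Per length, Sqstm1 dominated the soluble receptors. Its mean over the 6 libraries was 295 FPKM, against 19.8 for Nbr1, 13.0 for Tax1bp1, 8.34 for Calcoco1 and 5.18 for Optn. It made up 85.9%, 85.3% and 86.3% of the summed FPKM of the 5 genes in the controls and 87.5%, 86.2% and 87.0% in the mitochondria libraries, where mitochondria 2 fell within the range of the controls.

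**Figure D2:**
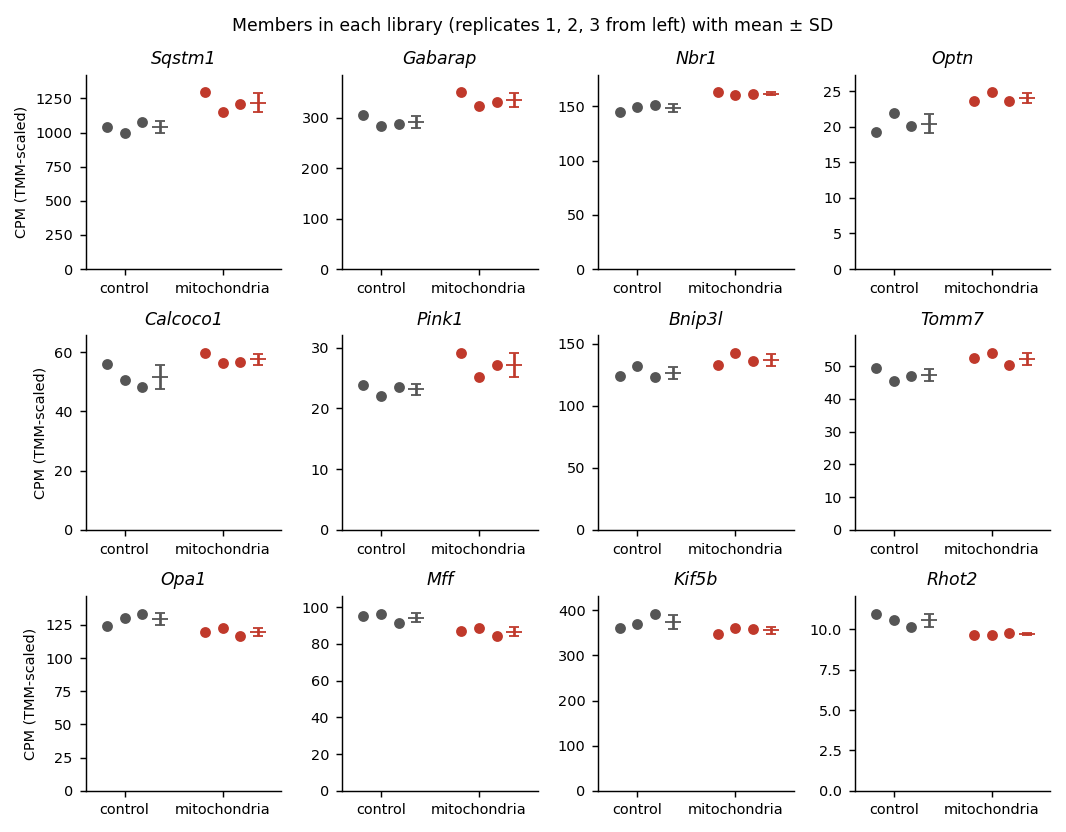
CPM of 12 members in each library, with 3 control and 3 mitochondria points per panel (replicates 1, 2 and 3 from left) and the mean ± SD beside them; axes start at 0. Sqstm1, Gabarap, Nbr1, Optn, Calcoco1, Pink1, Bnip3l and Tomm7 are higher in all mitochondria libraries and Opa1, Mff, Kif5b and Rhot2 lower, by small parts of their level, and of these 12 only Sqstm1 and Gabarap passed the test.

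All 5 ATG8-family members were above 0 with TMM scaling, with a median log2 fold change of 0.081, although 4 of the 5 were below 0 with TPM, where the median of all tested genes was itself −0.15. One was called. These small ubiquitin-like proteins are attached to lipid on the autophagosome membrane and hold the cargo receptors there. Gabarap was at 305, 283 and 288 CPM in the controls and 350, 323 and 331 CPM in the mitochondria libraries, without overlap and with mitochondria 1 the highest. Its means were 292 ± 11.6 and 335 ± 14.0 CPM (SD, n = 3; log2 fold change 0.20 ± 0.042 SE, edgeR adjusted p = 0.0333). The call was kept without control 1 or mitochondria 2 and lost without control 2, control 3, mitochondria 1 or mitochondria 3, and the log2 fold change over these fits was 0.16 to 0.23. With the ribosomal share as a covariate it was 0.20 (SE 0.079) and did not pass (edgeR adjusted p = 0.773). Neither Sqstm1 nor Gabarap passed with library totals only (log2 fold changes 0.18 and 0.15; edgeR adjusted p = 0.0583 and 0.103), with no filter (0.23 and 0.20; edgeR adjusted p = 0.236 and 0.246), with limma on log2(FPKM + 1) (0.17 and 0.14; adjusted p = 0.203 and 0.227) or with limma on TPM (0.071 and 0.039; adjusted p = 0.507 and 0.693). Relative to the median of all tested genes in the same analysis, the log2 fold changes were 0.22 to 0.23 and 0.19 to 0.20 in these scalings. A change of scaling shifts all genes nearly alike, so these relative values could hardly differ and are no separate check.

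The other 4 family members had log2 fold changes of 0.053 to 0.090 and did not pass. Gabarapl2 was the one of them without overlap, at 61.8, 64.8 and 62.5 CPM in the controls and 65.7, 68.0 and 66.3 CPM in the mitochondria libraries (log2 fold change 0.081, 95% interval −0.018 to 0.18). Map1lc3b, which encodes the widely used autophagosome marker LC3B, was at 0.090 (95% interval −0.017 to 0.20) with overlapping groups. Gabarapl1 was at 0.072 (95% interval −0.035 to 0.18), and its groups overlapped too. Map1lc3a, the lowest of the family, was at 18.7, 14.6 and 15.1 CPM in the controls and 17.3, 16.1 and 16.8 CPM in the mitochondria libraries, where control 1 was the highest of all 6. Its interval was wide, −0.19 to 0.30 around 0.053.

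In FPKM the family ran from Gabarap at 149 through Gabarapl1 at 36.7, Gabarapl2 at 24.5 and Map1lc3b at 17.1 to Map1lc3a at 12.2, as means over the 6 libraries. Gabarap was 61.8%, 60.6% and 61.1% of the summed FPKM of the family in the controls and 63.5%, 62.9% and 63.1% in the mitochondria libraries. The groups did not overlap in this share, which does not depend on the scaling between libraries.

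**Figure D3:**
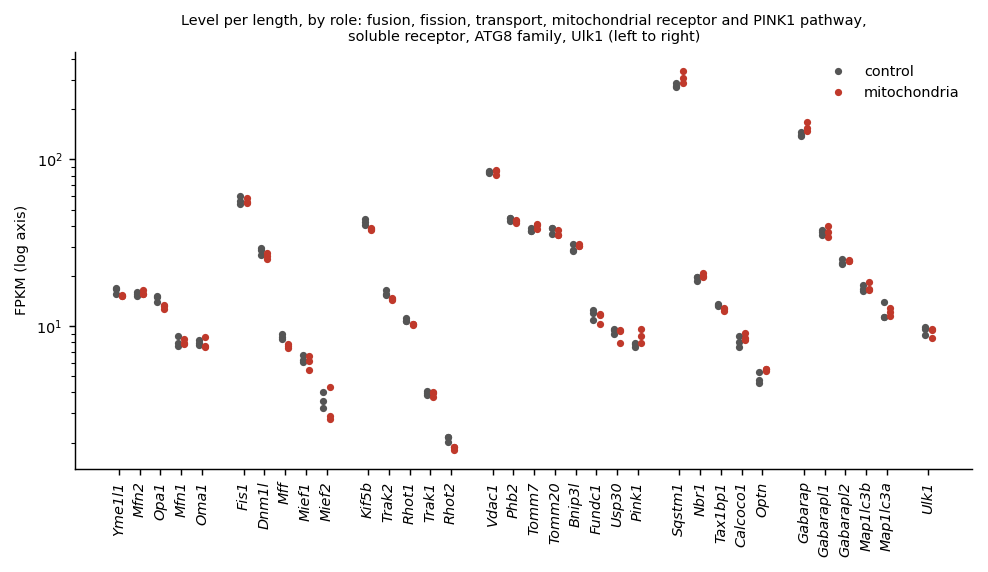
FPKM of every member in each library on a log axis, grouped by role and ordered by level within each role (grey, control; red, mitochondria). Sqstm1 at 295 and Gabarap at 149 stand above all other members, Rhot2 at 1.99 is the lowest, and the 2 groups lie close together for every gene.

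The sequence just before the start site of Sqstm1 is shown because it was the called member with the highest level. The stretch before its RefSeq start site (GRCm38.p6, minus strand, chr11:50210828-50211070, 243 bases, 64.2% G and C) ends where the deposited gene begins:
Sqstm1: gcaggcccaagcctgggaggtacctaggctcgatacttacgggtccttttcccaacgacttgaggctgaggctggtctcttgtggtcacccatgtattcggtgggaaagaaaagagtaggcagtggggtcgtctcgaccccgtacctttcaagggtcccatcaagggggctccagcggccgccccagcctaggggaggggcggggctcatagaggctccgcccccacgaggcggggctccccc
It holds no capitals, because none of the motifs searched was in this window. Sequence farther from the start site was not searched. The windows of 250 bases before and 50 after the start sites were searched on both strands for the core of the antioxidant response element (TGACNNNGC), which NRF2 binds, for the CLEAR element, which TFEB binds, and for the E-box at its core (CACGTG). Windows were found in RefSeq for 30 of the 34 members. The antioxidant core was in 4 of these 30 genes, against 14% of all genes with a window, the E-box in 2, against 8.09%, and the CLEAR element in none, against 0.37%. The 4 antioxidant matches lay outside the called genes and are given with 10 bases on each side, on the strand of the gene and with the match in capitals (the Rhot2 match is on the reverse strand):
Tomm20 (chr8:126946048-126946076, minus strand): tagaggcttcTGACTCAGCacgccacaaa
Rhot2 (chr17:25844648-25844676, minus strand): tgcaccacctGCAGAGTCAggaacactct
Tax1bp1 (chr6:52713950-52713978, plus strand): gtctccgtggTGACGAAGCtctctttccc
Map1lc3b (chr8:121590432-121590460, plus strand): gcgagtcaccTGACTCGGCtgcggactga
The Tomm20 match lay before the deposited gene, while the Rhot2, Tax1bp1 and Map1lc3b matches lay inside theirs. None of these 4 genes passed the test. Their log2 fold changes were −0.0043 for Tomm20, −0.12 for Rhot2, −0.024 for Tax1bp1 and 0.090 for Map1lc3b.

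The receptors built into mitochondria and the genes of the PINK1 pathway had a median log2 fold change of 0.039 (−0.12 with TPM). None of the 8 passed in edgeR or DESeq2, and 3 (37.5%) had an unadjusted p under 0.05, against 16.1% of all tested genes. In CPM, 4 (50%) were higher in every mitochondria library than in every control, against 10.1% of all tested genes. Pink1, the kinase that marks damaged mitochondria, was at 23.8, 22.1 and 23.6 CPM in the controls and 29.1, 25.1 and 27.2 CPM in the mitochondria libraries. This was one of the largest differences among the members, a log2 fold change of 0.23 (SE 0.088, 95% interval 0.038 to 0.42), and it did not pass (edgeR adjusted p = 0.225). Tomm7, a small subunit of the outer membrane translocase that helps to hold PINK1 there, was at 49.4, 45.6 and 46.8 CPM and then at 52.4, 53.9 and 50.3 CPM. Its log2 fold change was 0.14 (SE 0.055, edgeR adjusted p = 0.227), and control 1 came within 1 CPM of mitochondria 3.

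Bnip3l encodes NIX, an outer membrane receptor that binds ATG8-family proteins directly. It was at 124, 132 and 123 CPM in the controls and 133, 142 and 136 CPM in the mitochondria libraries, where control 2 lay just below mitochondria 1 (log2 fold change 0.12 ± 0.044 SE, edgeR adjusted p = 0.216). The table also lists Bnip3l-ps, a copy with a mean of 802 counts against 8245 for Bnip3l, and how reads shared by both were assigned is not given in the sources used here. Vdac1, a channel of the outer membrane that is tagged with ubiquitin during mitophagy, was the most abundant gene of this role at 84.0 FPKM. It was at 246, 244 and 248 CPM in the controls and 256, 252 and 260 CPM in the mitochondria libraries, a log2 fold change of 0.058 (95% interval −0.015 to 0.13) without overlap.

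The other 4 genes of this role lay close to 0 on the log2 scale. These were Fundc1, a receptor of hypoxia-induced mitophagy (−0.010, 95% interval −0.19 to 0.17), Phb2, an inner membrane prohibitin that also binds ATG8-family proteins (0.020, interval −0.058 to 0.10), Usp30, a deubiquitinase of the outer membrane that opposes mitophagy (−0.0086, interval −0.14 to 0.12), and Tomm20, a receptor of the translocase (−0.0043, interval −0.10 to 0.10). Their groups overlapped. Usp30 shares its locus with Svop and Alkbh2 on the opposite strand, which held means of 162 and 448 counts against 3964, and whether counting used strand is not stated.

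Bnip3, the NIX-related receptor and not among the members, was well expressed at 17.1 FPKM with a log2 fold change of 0.033 (SE 0.086). Of 18 other mitophagy genes that were tested none passed in edgeR (2 at an unadjusted p under 0.05, 1 call in DESeq2), with a median of 0.016. The lowest p was that of Vcp, the ATPase that extracts ubiquitinated proteins from the outer membrane, at 646, 622 and 634 CPM in the controls and 697, 665 and 668 CPM in the mitochondria libraries (log2 fold change 0.094 ± 0.032 SE, edgeR adjusted p = 0.173 and 0.0394 in DESeq2).

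Ulk1, the kinase that starts autophagosome formation, was at 64.8, 70.5 and 70.4 CPM in the controls and 70.2, 65.4 and 72.8 CPM in the mitochondria libraries, with overlapping groups (log2 fold change 0.018, 95% interval −0.10 to 0.14). Of 31 tested core autophagy genes 1 rose, none fell and 30 did not pass, with a median of 0.00016 and 16 of 31 above 0. In this list 5 genes (16.1%, the same share as among all tested genes) had an unadjusted p under 0.05. The called gene and Atg9a (0.17, edgeR adjusted p = 0.191) were higher. Atg3 (−0.14, edgeR adjusted p = 0.214), Atg16l1 (−0.12, edgeR adjusted p = 0.244) and Wdr45 (−0.28, edgeR adjusted p = 0.212) were lower. In CPM, 10 genes (32.3%, against 21.1% of all tested genes) did not overlap between the groups, 4 of them higher and 6 lower. The called gene was Vamp8, a SNARE protein of autophagosome-lysosome fusion, at 72.2, 72.3 and 74.6 CPM in the controls and 86.6, 80.5 and 84.1 CPM in the mitochondria libraries (log2 fold change 0.20 ± 0.045 SE, edgeR adjusted p = 0.0479). Its call was lost in 5 of the 6 fits without a library, all but that without mitochondria 2, and also with library totals only (edgeR adjusted p = 0.137), limma on log2(FPKM + 1) (adjusted p = 0.228), limma on log2(FPKM + 0.1) (adjusted p = 0.229), limma on TPM (adjusted p = 0.722), no filter (edgeR adjusted p = 0.225) and the ribosomal share as a covariate (edgeR adjusted p = 0.773). Among 7 tested regulators and p62 partners none passed in edgeR or DESeq2 and none had an unadjusted p under 0.05. Keap1 was at −0.065 (SE 0.057), Nfe2l2, the gene for NRF2, at −0.018 (SE 0.037), and Flcn, a regulator of TFEB, had the lowest p at 0.10 (SE 0.054, edgeR adjusted p = 0.414).

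The fusion members had a median log2 fold change of 0.044, with 3 above and 2 below 0 (1 above and 4 below on deposited FPKM, and a median of −0.020 without mitochondria 3). None of the 5 passed in edgeR or DESeq2, and 1 (20%) had an unadjusted p under 0.05, against 16.1% of all tested genes. That was Opa1, the inner membrane fusion dynamin, at 124, 131 and 133 CPM in the controls and 119, 123 and 117 CPM in the mitochondria libraries. Every mitochondria library lay below every control, with control 1 close to mitochondria 2 (log2 fold change −0.11 ± 0.043 SE, edgeR adjusted p = 0.222). Mfn2, the mitofusin that also tethers mitochondria to the endoplasmic reticulum, leaned the other way without overlap, at 91.5, 90.8 and 88.6 CPM and then at 91.9, 96.0 and 99.3 CPM. Its log2 fold change was 0.084 (SE 0.044, edgeR adjusted p = 0.379) and −0.073 with TPM. Mfn1, the other mitofusin, was at 0.044 (95% interval −0.072 to 0.16) with overlapping groups.

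The ratio of Mfn1 to Mfn2 in FPKM was 0.489, 0.549 and 0.525 in the controls and 0.535, 0.500 and 0.487 in the mitochondria libraries, and these ranges overlapped almost entirely. The proteases that cut OPA1 overlapped between the groups as well. Yme1l1, which processes OPA1 continuously, was at 140, 149 and 150 CPM in the controls and 140, 144 and 141 CPM in the mitochondria libraries (log2 fold change −0.047, 95% interval −0.14 to 0.041). Oma1, which cuts OPA1 under stress, was at 20.0, 18.1 and 19.1 CPM and then at 18.4, 19.2 and 21.5 CPM (log2 fold change 0.047, interval −0.16 to 0.26). Among 15 tested other genes of fusion and inner membrane shape none passed in edgeR or DESeq2 (2 at an unadjusted p under 0.05), and the median was 0.041. Parl, the rhomboid protease that cleaves PINK1 in healthy mitochondria, had the lowest p, at 0.15 (SE 0.049, edgeR adjusted p = 0.154; −0.0051 with TPM).

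The fission members had a median log2 fold change of −0.030, with 4 of 5 below 0, but the median was 0.040 without mitochondria 2 and 0.0027 without mitochondria 1. None passed in edgeR or DESeq2, and 1 (20%) had an unadjusted p under 0.05, against 16.1% of all tested genes. Mff, an outer membrane adaptor of DRP1, was at 94.999, 96.3 and 91.6 CPM in the controls and 86.9, 88.9 and 84.1 CPM in the mitochondria libraries, without overlap. Its log2 fold change was −0.12 (SE 0.043, 95% interval −0.22 to −0.028, edgeR adjusted p = 0.191). Dnm1l, which encodes DRP1, was at −0.030 (interval −0.14 to 0.082) with overlapping groups.

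The remaining adaptors overlapped between the groups. Fis1, the most abundant of the role at 56.5 FPKM, was at 116, 102 and 108 CPM in the controls and 114, 113 and 109 CPM in the mitochondria libraries (log2 fold change 0.047, interval −0.064 to 0.16). Mief2 was the least abundant, at 9.88, 10.6 and 12.3 CPM and then at 13.4, 9.01 and 9.20 CPM. Mitochondria 1 was the highest of all 6 libraries and the other two mitochondria libraries the lowest, so the interval was the widest of the set, −0.41 to 0.30. Mief1, its paralog, was at −0.00044 (interval −0.14 to 0.13). Among 11 tested other fission genes 1 fell, none rose and 10 did not pass. It was Spire1, an actin nucleator with a mitochondrial form that takes part in fission, at 56.8, 61.4 and 58.2 CPM in the controls and 46.4, 49.4 and 49.2 CPM in the mitochondria libraries (log2 fold change −0.28 ± 0.053 SE, edgeR adjusted p = 0.0208). Its call was lost in 4 of the 6 fits without a library, those without control 2, control 3, mitochondria 1 or mitochondria 3. It was also lost with limma on log2(FPKM + 1) (adjusted p = 0.0751), limma on log2(FPKM + 0.1) (adjusted p = 0.0744), no filter (edgeR adjusted p = 0.125) and the ribosomal share as a covariate (edgeR adjusted p = 0.773).

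Transport had the lowest median of the roles, −0.063, with 4 of 5 members below 0. In CPM, 3 (60%) were lower in every mitochondria library than in every control, against 11% of all tested genes. None passed in edgeR or DESeq2, and none had an unadjusted p under 0.05. Kif5b, the kinesin heavy chain that carries mitochondria outward along microtubules, was at 361, 369 and 391.9 CPM in the controls and 347, 360 and 359 CPM in the mitochondria libraries. The highest mitochondria library lay only just below control 1 (log2 fold change −0.074, SE 0.038, 95% interval −0.16 to 0.0085, edgeR adjusted p = 0.371). The other kinesin-1 heavy chains were below the filter, with Kif5a at 0.106 FPKM and Kif5c at 0.299 FPKM against 40.1 FPKM for Kif5b.

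Trak2, an adaptor that links kinesin and dynein to the Miro proteins, was at 123, 128 and 124 CPM in the controls and 120, 122 and 118 CPM in the mitochondria libraries (log2 fold change −0.063, interval −0.15 to 0.022). Trak1, its paralog, was at 0.046 (interval −0.072 to 0.16) with overlapping groups. The ratio of Trak2 to Trak1 in FPKM was 3.98, 4.14 and 3.84 in the controls and 3.93, 3.63 and 3.55 in the mitochondria libraries, where mitochondria 1 lay within the range of the controls. Rhot2, which encodes Miro2, was at 10.9, 10.6 and 10.2 CPM and then at 9.65, 9.65 and 9.77 CPM, without overlap. As the least abundant member at 1.99 FPKM it had a wide interval, −0.37 to 0.12 around −0.12. Rhot1, which encodes Miro1 and was at 10.5 FPKM, was at −0.027 (interval −0.12 to 0.066) with overlapping groups. Among 14 tested other transport genes none passed in edgeR or DESeq2, none had an unadjusted p under 0.05, and the median was 0.017. Armc10, a mitochondrial outer membrane protein that binds the Miro-TRAK complex, had the lowest p, at −0.14 (SE 0.079, edgeR adjusted p = 0.417).

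Set side by side, the role medians ran from −0.063 for transport and −0.030 for fission through 0.044 for fusion and 0.039 for mitochondrial receptors and the PINK1 pathway to 0.081 for the ATG8 family and 0.16 for the soluble receptors, against 0.0011 for all tested genes. Of the 15 fusion, fission and transport members 5 (33.3%) were above 0 and none was called. Of the 11 soluble receptor, ATG8 and kinase members 10 (90.9%) were above 0 and 2 (18.2%) were called. Among all tested genes 50.4% were above 0 and 2.09% were called. The wider lists did not repeat this contrast. Above 0 were 11 of 15 other fusion and inner membrane shape genes, 8 of 11 other fission genes and 8 of 14 other transport genes. Of the other mitophagy and the core autophagy genes, 11 of 18 and 16 of 31 were above 0. The difference between roles was not tested, because the members were chosen with results of these data known. The soluble receptors had the highest median and transport the lowest in all 17 analyses, which share the same libraries. Analyses that differ in scaling alone shift all roles nearly alike and could hardly change this order. Signs of single roles depended on scaling: the median of all tested genes was −0.051 on deposited FPKM and −0.15 with TPM, and with TPM the medians of transport and the soluble receptors were −0.22 and 0.00010. Relative to the median of all tested genes in the same analysis, these were −0.067 and 0.15, beside −0.064 and 0.16 with TMM. A shift common to all genes cancels in these relative values. In the reported edgeR fit, the intervals of the 15 fusion, fission and transport members reached at most −0.41 and 0.30. A change of 2-fold lay outside all of them in that fit. They reflect the spread between libraries alone and do not allow for the ribosomal share.

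**Figure D4:**
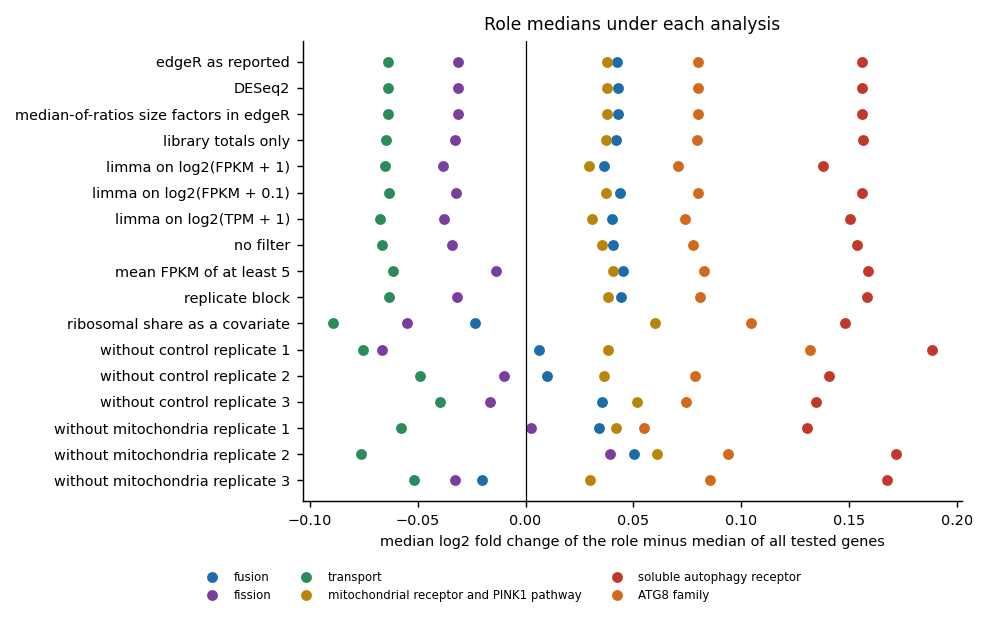
Median log2 fold change of the members of each role minus the median of all tested genes, in the reported analysis and the 16 alternatives (rows). The soluble receptors lie farthest right and transport farthest left in every row, while fission crosses 0 without mitochondria 1 or 2, and fusion crosses 0 without mitochondria 3 and with the ribosomal share as a covariate.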

How the data were processed

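Per the labels' protocols, RNA came from spin columns and the mRNA library kit was a stranded one. The deposited table gives each gene a raw count and an FPKM value per library, per the file headers. The submitters' processing notes name cutadapt 1.9, HISAT2 2.2.1, StringTie 2.1.6, DESeq2, edgeR and the build GRCm38. The sources used here give neither their roles and settings nor how shared reads and strand were handled. Groups came from the treatment label.

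Genes with FPKM of at least 1 in at least 3 libraries were tested with edgeR 4.0.16 (R 4.3.3, TMM, glmQLFit, glmQLFTest, two-sided), after a check on simulated counts. The pass limits of that check concerned changes larger than those of the called members, and its counts held no difference in ribosomal share. SEs were derived as the size of the log2 fold change divided by √F, and intervals are 95%. CPM are TMM-scaled. Alternatives used DESeq2 1.42.0, limma 3.58.1 on log2(FPKM + 1), log2(FPKM + 0.1) and log2(TPM + 1), other scalings and filters, the replicate number as a block, the ribosomal share as a covariate, and each library left out. Libraries of a group differed by more than counting noise (mean chi-square per gene 15.3 to 84.4). This plain mean includes CT010467 and Lars2, whose share differed between libraries, so it does not describe a typical gene. The members, gene lists and roles were chosen with earlier results of these data known. Values per library are given for called members, the lowest p and the highest and lowest FPKM of each role, and members with non-overlapping groups and an absolute log2 fold change of at least 0.1. Of each other list, called genes or the lowest p are named. The following were chosen after their values were seen: Mfn2, Gabarapl2 and Trak2 per library, and Calcoco2, Bnip3, Pecam1, Esam, Spp1, Col1a1, Keap1, Nfe2l2, Kif5a and Kif5c. Atg3, Atg9a, Atg16l1, Wdr45, Tomm5 and Tomm22 were also chosen in this way. Promoter windows are from RefSeq (GRCm38.p6).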

Additional observations from a re-analysis of the deposited data

How the results depend on the processing

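edgeR called 235 genes and 2 members. DESeq2 called 598 genes and 3 members, and other settings gave 353 genes with library totals only, 39 with limma on log2(FPKM + 1), 36 with 0.1 as pseudocount, 22 with no filter, 3 with the ribosomal share as a covariate and 394 with the replicate block. No member was called with library totals only, with limma on FPKM (either pseudocount) or TPM, with no filter or with the covariate, a count of 0. With the replicate block both member calls held, and the SE of Sqstm1 was 0.028 against 0.043 without it. Deviations from the group means correlated at 0.070, 0.066 and 0.035 between same-numbered libraries. Between differently numbered libraries the correlations ran from −0.13 to 0.069. The labels do not state a pairing, and the numbers were not taken as pairs. Without a library, 68 to 233 genes and 0 to 2 members were called.

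The role medians, in the order fusion, fission, transport, mitochondrial receptors and PINK1 pathway, soluble receptors and ATG8 family, were −0.0042, −0.079, −0.11, −0.0085, 0.11 and 0.033 with library totals only. They were −0.014, −0.089, −0.12, −0.022, 0.087 and 0.020 with limma on log2(FPKM + 1), and −0.016, −0.092, −0.12, −0.022, 0.10 and 0.020 with 0.1. With TPM they were −0.11, −0.19, −0.22, −0.12, 0.00010 and −0.076. With the covariate the first 4 were −0.023, −0.055, −0.089 and 0.060. Without a library they ran from −0.020 to 0.051, −0.064 to 0.040, −0.075 to −0.039, 0.030 to 0.062, 0.13 to 0.19 and 0.055 to 0.13. The cause of these shifts was not tested.

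Single genes changed sign. With library totals only the values were Mfn1 −0.0042, Oma1 −0.00037, Trak1 −0.0020, Phb2 −0.027 and Ulk1 −0.029. With limma on log2(FPKM + 1) they were Mfn1 −0.014, Oma1 −0.014, Fis1 −0.012, Trak1 −0.013, Vdac1 −0.0034, Phb2 −0.040, Map1lc3a −0.00044 and Ulk1 −0.039. With 0.1 they were Mfn1 −0.016, Oma1 −0.015, Fis1 −0.012, Trak1 −0.016, Vdac1 −0.0035, Phb2 −0.040, Map1lc3a −0.00010 and Ulk1 −0.043. With TPM they were Mfn1 −0.11, Mfn2 −0.073, Oma1 −0.11, Fis1 −0.11, Trak1 −0.11, Tomm7 −0.015, Vdac1 −0.10, Bnip3l −0.040, Phb2 −0.14, Nbr1 −0.037, Gabarapl1 −0.088, Gabarapl2 −0.076, Map1lc3a −0.10, Map1lc3b −0.067, Ulk1 −0.14, Parl −0.0051, Vcp −0.065 and Flcn −0.061. Mief1 was 0.0013 at a mean FPKM of at least 5 and 0.0032 with no filter. With the covariate they were Oma1 −0.10, Fis1 −0.055, Mief1 0.087, Mief2 0.26, Trak1 −0.061, Usp30 0.080, Fundc1 0.053 and Map1lc3a −0.078. Without a library, Dnm1l ran from −0.076 to 0.017, Fundc1 from −0.058 to 0.041, Map1lc3a from −0.014 to 0.17, Mief1 from −0.062 to 0.056, Mief2 from −0.27 to 0.044, Oma1 from −0.020 to 0.093, Tomm20 from −0.055 to 0.024, Ulk1 from −0.021 to 0.060 and Usp30 from −0.049 to 0.055.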

Other observations

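The outer membrane genes around the members did not share a direction. Of 9 other translocase and channel genes 4 were above 0 and 5 below, none passed in edgeR, and 2 were called in DESeq2. An unadjusted p under 0.05 was found for 5 (55.6%, against 16.1% of all tested genes). In CPM, 55.6% did not overlap between the groups, against 21.1% of all tested genes. Of these, 4 were lower (Tomm5, Tomm22, Tomm70a and Vdac2) and 1 was higher (Tomm40l). Tomm22 was at −0.089 ± 0.039 SE (edgeR adjusted p = 0.295). Tomm70a, a receptor of the translocase for carrier proteins, was at 281, 275 and 283 CPM in the controls and 253, 261 and 262 CPM in the mitochondria libraries (log2 fold change −0.11 ± 0.034 SE, edgeR adjusted p = 0.135 and 0.0272 in DESeq2). Vdac2, a paralog of Vdac1 chosen after its values were seen, was lower in every mitochondria library, at 414, 404 and 411 CPM against 391, 379 and 381 CPM (log2 fold change −0.095 ± 0.032 SE, edgeR adjusted p = 0.164), where Vdac1 was at 0.058. Vdac3, the other paralog, was at 0.12 ± 0.047 SE (edgeR adjusted p = 0.239) with overlapping groups, and Tomm40l, a paralog of the translocase pore gene Tomm40, was at 0.21 ± 0.094 SE (edgeR adjusted p = 0.294) and higher in every mitochondria library; both were also chosen after their values were seen. The differences between paralogs were not tested.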
